A study of Mus musculus with 9 samples.

Results

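The classical MHC class I pathway was followed here in 10 genes, chosen by name: B2m, H2-K1, H2-D1, Tap1, Tap2, Tapbp, Nlrc5, Psmb8, Psmb9 and Psmb10. Each of the 10 had 1 row among the 45535 rows with a gene symbol in the table of normalized read counts. All 10 had a mean of at least 10 normalized counts over the samples, as did 18202 genes in all, and these were tested. The samples were CD103+ dendritic cells (DCs) from lungs of mice with the genotype label C57/BL6j, all given bleomycin, a drug that injures the lung, for 7 days. The cells were freed with collagenase and pulled out on magnetic beads, and RNA was taken from 5 samples directly (before culture) and from 4 samples after 18 h in RPMI medium with FBS and pen/strep (after culture). Whether each sample was 1 mouse or a pool is not in the labels, so p-values measure only the spread between these samples, and lungs without bleomycin are not used here. The extraction note speaks of RNA of the lung, while the cell type label names the CD103+ cells.

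MHC class I molecules show peptides from inside the cell to CD8 T cells. The proteasome cuts proteins into peptides, and in immune cells its catalytic subunits are partly replaced by those of the immunoproteasome. The TAP transporter carries the peptides into the endoplasmic reticulum, where tapasin and chaperones load them onto a heavy chain paired with beta-2 microglobulin. NLRC5 drives transcription of these genes by binding a complex of factors at their promoters, as CIITA does for MHC class II genes. Dendritic cells with CD103 are known for cross-presentation, the loading of class I molecules with peptides from material taken up.

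The promoters of the class I molecules carry the sites by which these genes are known to be controlled, so stretches of them are shown first. Among RefSeq windows of GRCm38.p6 that run from 250 bases before to 50 bases after a start site, 8 of the 10 genes had an entry, and Nlrc5 and Tap2 were not matched. Capitals mark 4 motifs searched on both strands: an interferon-regulatory factor (IRF) element (GAANNGAAA, or GAAA followed by NN and another GAAA), the kappaB motif, the CCAAT box, and TGACG, a core of the X2 box. A motif read on the other strand shows as its complement (ATTGG for CCAAT). In the 249 bases upstream of B2m (chr2:122147437-122147685, plus strand) all 4 occur, and so they do upstream of H2-K1 (chr17:34000349-34000597, minus strand).
B2m: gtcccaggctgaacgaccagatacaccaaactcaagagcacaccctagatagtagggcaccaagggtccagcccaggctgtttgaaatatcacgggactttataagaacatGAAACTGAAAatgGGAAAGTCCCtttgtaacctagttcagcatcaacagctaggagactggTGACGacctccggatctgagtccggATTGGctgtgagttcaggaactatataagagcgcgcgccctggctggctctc
H2-K1: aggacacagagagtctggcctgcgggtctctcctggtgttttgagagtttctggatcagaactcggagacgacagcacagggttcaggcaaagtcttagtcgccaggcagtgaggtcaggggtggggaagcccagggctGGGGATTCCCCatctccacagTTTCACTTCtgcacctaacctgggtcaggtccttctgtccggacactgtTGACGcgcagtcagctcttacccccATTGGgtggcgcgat

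The paired kappaB and IRF sites are nearly the same in both heavy chain genes. The 30-base stretch of H2-K1 (chr17:34000429-34000458, minus strand) and that of H2-D1 (chr17:35262923-35262952, plus strand) were identical at 29 of 30 bases. They differed by A18T, with positions counted from the 5′ end and H2-K1 as the reference.
H2-K1: GGGGATTCCCCatctccacagTTTCACTTC
H2-D1: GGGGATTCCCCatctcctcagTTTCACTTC

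Tap1 and Psmb9 lie head to head, with RefSeq start sites 226 bases apart on opposite strands. The stretch between them that holds TGACG (chr17:34187459-34187488, plus strand) belongs to the windows of both genes.
Tap1 and Psmb9: ccagagacaggTGACGacagagggtcctgc
The IRF element and the kappaB motif each occurred in 3 of the 8 genes with a window, B2m, H2-K1 and H2-D1. H2-K1 had windows for start sites 34000347 and 34000333, and both held these motifs. The CCAAT box occurred in 6 of the 8 and TGACG in 5. Both counts hold Tap1 and Psmb9, whose overlapping windows share the same CCAAT bases and the same TGACG bases. Of 32851 windows of 300 bases, 10.4% held the IRF element, 8.46% kappaB, 37.4% CCAAT and 20.8% TGACG. The motifs were picked with the sequences in view, and a match describes letters, not a bound site.

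Depth ran from 14.7 to 35.3 M reads per sample in rows with a symbol, with a mean of 23.2 M before and 31.0 M after culture. The 10 class I genes had 677 to 126051 reads per sample, so the spread between samples, not counting error, sets their precision. Of 10 markers of type 1 conventional DCs (cDC1), which most CD103+ lung DCs are, all were read in every sample. Their summed normalized count was 121489 to 149327 before and 29633 to 34492 after culture. By limma 7 markers were lower and 3 higher (Batf3, Flt3 and Zbtb46). Wdfy4 was the largest part of the sum before culture, with a mean of 75716.5, and 4761 after. Itgae, which encodes CD103 itself, fell from a mean of 18138 to 1727, and Xcr1 from 5836 to 114. Markers of other lung cells were read in both groups and were lower after culture as sums: neutrophil (12713 to 21974 before, 813 to 1687 after), endothelial (21920 to 31725, 3189 to 4150), epithelial (23383 to 37482, 4169 to 7476) and fibroblast genes (15611 to 28377, 2206 to 4422). Among all the marker lists, S100a9 alone was at 0 in any sample. Sums of macrophage and monocyte (21070 to 31842 before, 8284 to 17542 after), NK cell (1078 to 2364, 174 to 317) and plasmacytoid DC genes (4393 to 5049, 2416 to 3103) were lower too, with 1 of the 8 macrophage and monocyte genes higher. Sums overlapped between the groups for type 2 DC (16545 to 23716 before, 15007 to 28040 after), T cell (4748 to 5660, 4312 to 5534) and B cell genes (1650 to 3013, 1903 to 2594). Of the 5 type 2 DC genes 1 was higher and 3 lower, of 6 T cell genes 1 and 2, and of 4 B cell genes 1 was higher. Sirpa, at means of 14134 before and 18100 after culture, was the largest part of the type 2 DC sum. Within that list Mgl2 fell from 3857 to 52.1 and Cd209a from 755 to 10.1, while Itgam rose from 1679 to 3698. Most of these cell types express class I genes too, and their part in the class I values was not tested. In such bulk RNA, fewer cells of a type and less RNA per cell cannot be told apart.

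After culture, 5 of the 10 class I genes were higher, none was lower and 5 did not pass the test (limma on log2(value + 1), two-sided, Benjamini-Hochberg adjusted p under 0.05 over all tested genes). The 5 higher genes were B2m, Nlrc5, Tapbp, Psmb10 and Psmb8, and in each of them every sample after culture was above every sample before culture. Change was the rule among all genes tested: 68.8% were called in either direction, 34.2% higher and 34.6% lower. The groups did not overlap for 57.3% of all genes, and 28.7% were higher with no overlap. The 5 of 10 class I genes called or without overlap are thus fewer than the share of all genes that changed, and their rises are more than the share of all genes that rose, as a description of 10 genes. The count of 0 lower genes was also 0 with edgeR and with DESeq2 on recovered reads, and at an unadjusted p of 0.05 in limma. The median log2 fold change of the 10 was 0.23, against 0.0065 over all tested genes. The genes together took 0.506 ± 0.0220% of named reads before (SD, n = 5) and 0.731 ± 0.0205% after culture (SD, n = 4). B2m, which had the most reads of the 10, weighs most in this share. Its mean went from 45492.5 to 88511.9 normalized counts, while H2-K1 went from 21915 to 23916 and H2-D1 from 28762.5 to 25615. The share is thus no measure of a rise across the 10.

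Removing a trend over GC content and transcript length together changed several calls. The part of each was not tested. The longest transcripts of the 10 genes had a median GC content of 55.1% (41.2% for B2m to 57.1% for Tapbp), against 49.3% over tested genes, and a median length of 2493 bases (860 for B2m to 7578 for Nlrc5), against 2953. When a smooth trend of the values over GC content and transcript length was removed from every sample, the median log2 fold change of all genes shifted to 0.13 and all 10 class I genes were called higher, where 39.4% of tested genes were called higher and 28.4% lower. Relative to that shifted median, the 10 genes then lay between 0.16 (H2-D1) and 1.15 (Nlrc5) on the log2 scale. The calls and p-values in this setting are against 0, not against that median. Which of these settings is nearer to the RNA was not tested, and each of the 10 genes is given under both below. Counts over the other gene lists are those with the values as deposited.

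**Figure D1:**
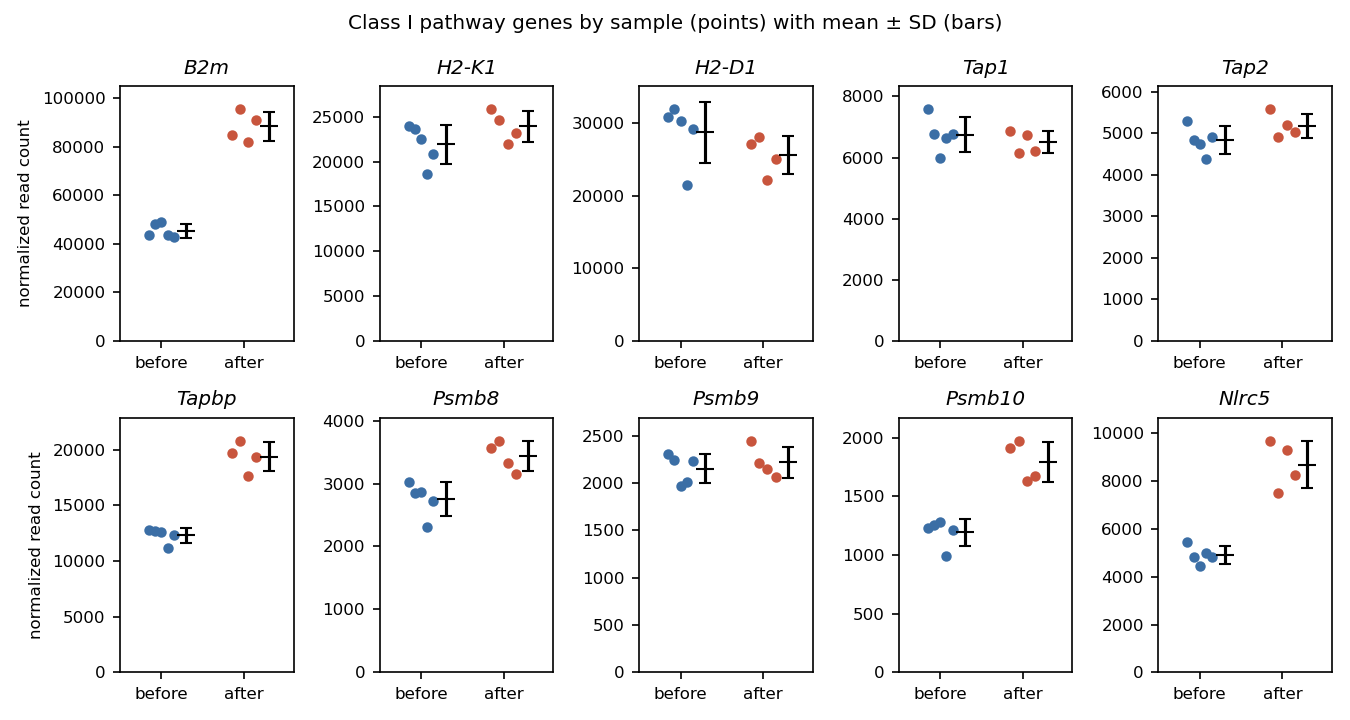
Normalized read count (y axis, from 0) of each of the 10 class I genes in the 5 samples before (blue) and the 4 samples after culture (red). Points are samples, bars the mean ± SD. The groups do not overlap for B2m, Tapbp, Psmb8, Psmb10 and Nlrc5, and overlap for the other 5 genes.

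B2m, on chromosome 2 (GRCm38, chr2:122147686-122153083, plus strand), encodes beta-2 microglobulin, the small chain shared by all classical class I molecules. Its normalized read counts before culture were 43852, 48149, 48997, 43590 and 42876. After culture they were 85067, 95566, 82153 and 91262. All samples after culture lay well above those before, and the spread within each group was small. The ratio of the means was 1.95, and the log2 fold change was 0.96 (SE 0.0935, limma adjusted p = 8.43e-07). With the GC and length trend removed it was 0.48 (limma adjusted p = 0.00344).

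Neither heavy chain gene passed the test with the values as deposited. H2-K1 (chr17:33996017-34000347, minus strand) encodes the K heavy chain, which holds the peptide in its groove. It had 23938, 23591, 22493, 18664 and 20889 normalized counts before culture. After culture the values were 25844, 24675, 21991 and 23156, which overlap those before. Its log2 fold change was 0.13 (SE 0.0924, limma adjusted p = 0.229). With both trends removed it was 0.51 (limma adjusted p = 5.79e-05).

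H2-D1 (chr17:35262730-35267499, plus strand) encodes the D heavy chain. Before culture, 4 samples had 30883, 31933, 30358 and 29214 normalized counts, and replicate 4 stood apart at 21425. Samples after culture had 27116, 28065, 22202 and 25076. Those 4 values lie below the 4 higher samples before culture and above replicate 4. The log2 fold change was −0.16 (SE 0.121, limma adjusted p = 0.258). Without replicate 4 before culture H2-D1 was called lower (−0.26, limma adjusted p = 0.0174), as it was with sample weights (−0.22, limma adjusted p = 0.0469). With the GC and length trend removed the sign turned and H2-D1 was called higher (0.29, SE 0.0976, limma adjusted p = 0.0170). That call is against 0, and H2-D1 lay only 0.16 above the shifted median of all genes. Between the heavy chains, sequence is shared: 14.3% of the 50-base windows of the longest H2-D1 transcript occur in other genes, most of all H2-K1, and 8.11% of those of H2-K1 occur elsewhere, most of all in H2-Bl. How reads in those windows were assigned is not given in the sources used here.

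The unequal change of the light and heavy chains can be read within each sample, where scaling between samples has no part. For B2m over H2-K1 the ratio of normalized counts was 1.83, 2.04, 2.18, 2.34 and 2.05 before and 3.29, 3.87, 3.74 and 3.94 after culture. The ratio of B2m to H2-D1 was 1.42, 1.51, 1.61, 2.03 and 1.47 before, and 3.14, 3.41, 3.70 and 3.64 after. Neither ratio overlapped between the groups. On the log2 scale they rose by 0.83 and 1.12, each at p = 0.0159 in an exact two-sided permutation test, the smallest p that 5 against 4 samples allow, and at 0.0286 after Benjamini-Hochberg adjustment over 9 ratios. With the trend over GC and length removed, the B2m to H2-K1 ratio turned to −0.025 (exact permutation, adjusted p = 0.810) and the B2m to H2-D1 ratio shrank to 0.19 (exact permutation, adjusted p = 0.0714).

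Of the transport and loading genes Tapbp rose, and neither subunit of the transporter passed the test. Tap1 (chr17:34187553-34197225, plus strand) and Tap2 (chr17:34203527-34216321, plus strand) encode the subunits of the TAP transporter. Before culture, Tap1 had 7583, 6783, 5989, 6651 and 6761 normalized counts. After culture the counts were 6859, 6147, 6746 and 6223, all inside the earlier range. The log2 fold change of Tap1 was −0.054 (SE 0.0776, limma adjusted p = 0.552), and turned to 0.48 with the GC and length trend removed (limma adjusted p = 2.02e-04).

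Tap2 went from 5304, 4829, 4750, 4392 and 4922 before to 5582, 4904, 5189 and 5034 normalized counts after culture. These groups overlapped as well. Its log2 fold change was 0.098 (SE 0.0724, limma adjusted p = 0.243), and 0.66 (limma adjusted p = 1.34e-06) with the trend removed. The antisense genes Gm15821 and Gm20496 cover part of Tap2 (18.5% of the exonic bases of Tap2 overlap exons on the other strand). Both are read at a far lower level. Gm15821 had 27.2 ± 5.90 normalized counts before (SD, n = 5) and 178 ± 68.1 after culture (SD, n = 4). Gm20496 had 33.5 ± 17.2 before and 53.2 ± 5.64 after culture. Without knowing whether counting used strand, reads of overlapping genes cannot be told apart.

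Tapbp (chr17:33915899-33929292, plus strand) encodes tapasin, which holds the empty class I molecule at the transporter. It had 12757, 12678, 12608, 11136 and 12313 normalized counts before culture. After culture it had 19682, 20812, 17667 and 19370, so the lowest of these lies far above the highest before. The log2 fold change was 0.66 (SE 0.0765, limma adjusted p = 4.84e-06), and 1.17 (limma adjusted p = 2.73e-09) with the GC and length trend removed. Of Tapbp's exonic bases 24.9% overlap antisense exons of other genes, and 21.0% of its 50-base windows are shared, most of all with Gm19412. The ratio of Tapbp to Tap1 was 1.83 ± 0.176 before (SD, n = 5) and 3.00 ± 0.328 after culture (SD, n = 4), with no overlap. This is a log2 difference of 0.71 (exact two-sided permutation test, p = 0.0159, adjusted p = 0.0286), and 0.69 with the trend removed (exact permutation, adjusted p = 0.0357). Tap1 over Tap2 fell slightly, from 1.40 ± 0.0922 to 1.25 ± 0.0320 (SD), a log2 difference of −0.15 with overlapping groups (exact permutation p = 0.0317, adjusted p = 0.0476). That small difference did not pass with the trend removed (−0.18, exact permutation, adjusted p = 0.0571).

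The immunoproteasome genes parted. Psmb10 rose most, Psmb8 rose less and Psmb9 did not pass the test. They encode the subunits beta-2i, beta-5i and beta-1i, each of which takes the place of a constitutive subunit made from Psmb7, Psmb5 and Psmb6. Psmb10 (chr8:105935735-105938444, minus strand) had 1229, 1257, 1283, 994 and 1212 normalized counts before and 1909, 1975, 1629 and 1676 after culture. Its log2 fold change was 0.59 (SE 0.0925, limma adjusted p = 7.52e-05). Every sample after culture was above every one before.

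Psmb8 (chr17:34197721-34201454, plus strand) went from 3022, 2854, 2860, 2310 and 2715 to 3570, 3681, 3333 and 3157 normalized counts. The groups came close but did not touch. Its log2 fold change was 0.32 (SE 0.0853, limma adjusted p = 0.00418), and 14.7% of its exonic bases overlap the antisense gene Gm20496. Psmb9 (chr17:34181987-34187764, minus strand) had 2305, 2237, 1966, 2009 and 2236 before and 2446, 2211, 2146 and 2063 after culture. Those ranges lie over one another. The log2 fold change of Psmb9 was 0.044 (SE 0.0770, limma adjusted p = 0.633), which fell to −0.0046 without replicate 1 after culture (limma adjusted p = 0.963) and was 0.43 with the GC and length trend removed (limma adjusted p = 1.08e-04). With that trend removed, Psmb10 was at 1.05 (limma adjusted p = 2.38e-08) and Psmb8 at 0.61 (limma adjusted p = 8.20e-06).

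Set against the constitutive subunit that each replaces, no immunoproteasome gene passed the test with the values as deposited. Psmb8 over Psmb5 was 3.51 ± 0.401 before (SD, n = 5) and 3.44 ± 0.541 after culture (SD, n = 4), with a log2 difference of −0.034 (exact two-sided permutation test, p = 0.825). Psmb9 over Psmb6 was 1.41 ± 0.298 and 1.49 ± 0.269 (SD), a log2 difference of 0.083 (exact permutation p = 0.651, adjusted p = 0.732). Psmb10 over Psmb7 went from 0.668 ± 0.0692 to 0.807 ± 0.0630 (SD), a log2 difference of 0.27 that did not pass after adjustment (exact permutation p = 0.0476, adjusted p = 0.0612). With the GC and length trend removed, this last difference was 1.14 and passed (exact permutation, adjusted p = 0.0357). The Psmb5 values carry a limit of their own, since 57.1% of the windows of its longest transcript occur in other genes, most of all Gm3375.

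Nlrc5 (chr8:94434356-94527272, plus strand), the transactivator of class I genes, rose. It had 5446, 4825, 4440, 5012 and 4817 normalized counts before culture and 9686, 7508, 9303 and 8242 after. The lowest value after culture is well above the highest before. Its log2 fold change was 0.82 (SE 0.0882, limma adjusted p = 2.24e-06), a ratio of means of 1.77, and with the GC and length trend removed it was 1.27 (limma adjusted p = 9.58e-08). Among the genes NLRC5 is known to drive, B2m stood at 0.96, H2-K1 at 0.13 and H2-D1 at −0.16 on the log2 scale. Psmb9 was at 0.044 and Tap1 at −0.054 in the same samples. With the GC and length trend removed, these 5 genes were at 0.48, 0.51, 0.29, 0.43 and 0.48, in that order.

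Per kilobase of the longest transcript, B2m was the most abundant of the 10 in both groups, at 52898 ± 3314 normalized counts per kb before (SD, n = 5) and 102921 ± 7029 after culture (SD, n = 4). H2-D1 (13683 ± 2006 per kb) and H2-K1 (11694 ± 1159) came next before culture and did not differ beyond their spread. After culture H2-K1 (12762 ± 902 per kb) and H2-D1 (12186 ± 1234) overlapped again. Tapbp followed in both groups, at 4244 ± 232 before and 6688 ± 449 per kb after culture, apart from its neighbours in the order. The other 6 genes lay between 648 per kb (Nlrc5) and 1727 per kb (Tap1) before culture. Most neighbours among them overlapped, and only Tap2 (1406 ± 95.3 per kb) and Psmb10 (912 ± 88.4) stood apart. After culture Nlrc5 was above Psmb9 (1146 ± 131 against 769 ± 57.0 per kb) with no overlap, where before culture it was last and overlapped Psmb9.

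Several of the class I genes were lowest or highest in the same samples, but the 10 did not move as 1 set. Replicate 2 after culture was the highest of its group for B2m, H2-D1, Tapbp, Psmb8 and Psmb10. For Tap1, Tap2 and Nlrc5 that replicate was the lowest. How often all genes share such extremes was not counted. The coefficient of variation of the 10 genes within a group was 5.46% to 14.7%. Replicate 4 before culture was the lowest of its group for 6 of the 10 genes and replicate 1 before culture the highest for 7, and replicate 3 after culture was the lowest for 5. Replicate 4 before and replicate 3 after culture carry the same number, 4, in their library names. Replicate 4 before culture also had the lowest share of reads in rows without a symbol in its group, 6.43% against up to 10.9%.

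**Figure D2:**
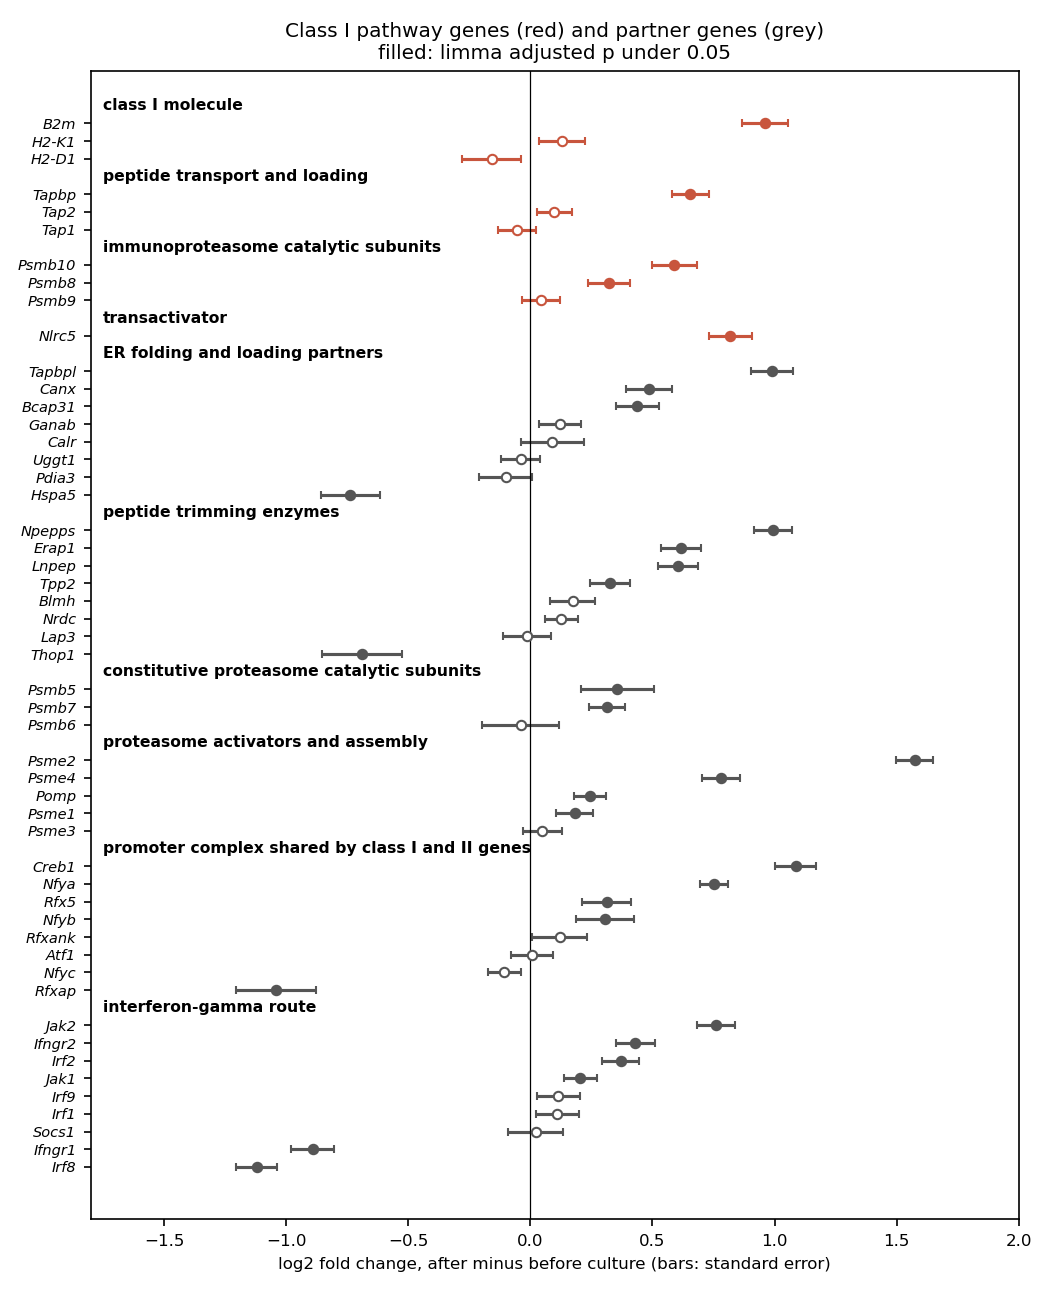
Log2 fold change after minus before culture (x axis, log2 scale) of the 10 class I genes (red) and of 41 partner genes in 6 lists (grey), with standard errors as bars. Filled points passed a limma adjusted p of 0.05. Psme2 lies farthest to the right at 1.57 and Irf8 farthest to the left at −1.12.

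Among 8 partners of folding and loading in the endoplasmic reticulum, 3 rose, 1 fell and 4 did not pass, with a median log2 fold change of 0.11. This count and those of the lists below stand beside 34.2% of all tested genes higher and 34.6% lower. The largest rise was in Tapbpl, which encodes TAPBPR, a relative of tapasin that edits the bound peptide. It went from 1082 ± 96.2 to 2148 ± 176 normalized counts (SD, n = 5 and n = 4; log2 fold change 0.99, SE 0.0857, limma adjusted p = 2.64e-07). Canx, the chaperone calnexin, rose by 0.49 (limma adjusted p = 4.60e-04), but missed the threshold with the GC and length trend removed (0.25, limma adjusted p = 0.0514). The gene that fell was Hspa5, a general chaperone of this compartment, from 20063 ± 718 to 12237 ± 2699 (log2 fold change −0.74, limma adjusted p = 1.08e-04). Calr and Pdia3, both part of the loading complex, did not pass (0.090 and −0.10).

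Of 8 peptide trimming enzymes, 4 rose, 1 fell and 3 did not pass, with a median of 0.25. Erap1, the enzyme that trims peptides to the length class I molecules hold, rose from 2327 ± 230 to 3555 ± 163 normalized counts (log2 fold change 0.62, SE 0.0810, limma adjusted p = 1.51e-05). Lnpep, an aminopeptidase of endosomes linked to cross-presentation, rose by 0.60 (limma adjusted p = 2.00e-05), and Npepps, a cytosolic aminopeptidase, by 0.99 (limma adjusted p = 8.04e-08). Thop1, a cytosolic peptidase that destroys peptides, fell from 437 ± 97.7 to 265 ± 29.4 (log2 fold change −0.69, limma adjusted p = 0.00203). This fall was −0.045 with the GC and length trend removed (limma adjusted p = 0.771).

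Of 3 constitutive catalytic subunits of the proteasome, 2 rose and 1 did not pass. Psmb7 rose by 0.32 (limma adjusted p = 0.00184), but turned to −0.089 with the GC and length trend removed (limma adjusted p = 0.429). Psmb5 was at 0.36 (limma adjusted p = 0.0470) and lost the call without replicate 2, 4 or 5 before culture and without replicate 1, 2 or 4 after culture, with adjusted p between 0.0107 and 0.127 over the 9 fits that left out 1 sample. Among 5 activators and assembly factors, 4 rose and 1 did not pass, with a median of 0.24. Psme2, a subunit of the interferon-induced activator PA28, went from 2233 ± 174 to 6641 ± 419 normalized counts (log2 fold change 1.57, SE 0.0767, limma adjusted p = 8.94e-10). The value of Psme2 is uncertain, as 59.3% of its windows occur elsewhere, chiefly in Psme2b. Psme4, another activator, rose by 0.78 (limma adjusted p = 1.12e-06), and Pomp, which helps to assemble the proteasome, by 0.24 (limma adjusted p = 0.00431).

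In the promoter complex that NLRC5 and CIITA bind, 4 of 8 genes rose, 1 fell and 3 did not pass, with a median of 0.21. Creb1 rose from 2303 ± 101 to 4912 ± 584 normalized counts (log2 fold change 1.09, SE 0.0828, limma adjusted p = 7.28e-08). Nfya, a subunit of the factor that binds CCAAT, rose by 0.75 (limma adjusted p = 8.12e-08). Rfxap, a subunit of the RFX complex, fell from 308 ± 45.9 to 151 ± 37.3 (log2 fold change −1.04, limma adjusted p = 7.33e-05). Genes of this promoter complex, which come from different factors, moved in both directions, as did all tested genes (34.2% higher and 34.6% lower).

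On the interferon-gamma route, which induces class I genes, 4 of 9 genes rose, 2 fell and 3 did not pass, with a median of 0.12. Jak2, a kinase of the receptor, rose from 11097 ± 505 to 18840 ± 1614 normalized counts (log2 fold change 0.76, SE 0.0780, limma adjusted p = 1.40e-06). Ifngr1, the ligand-binding chain of the receptor, fell from 10322 ± 630 to 5586 ± 701 (log2 fold change −0.89, limma adjusted p = 9.82e-07). Irf8, a factor needed for cDC1, fell from 18457 ± 1783 to 8465 ± 404 (−1.12, limma adjusted p = 6.12e-08). Irf1, a direct activator of class I promoters, did not pass with the values as deposited, at 0.11 (limma adjusted p = 0.282). With the GC and length trend removed, its log2 values were 12.30 to 12.61 before and 12.65 to 12.98 after culture. These groups nearly touch, in a setting where the median log2 fold change of all genes was 0.13. How many genes do not overlap in that setting was not counted.

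**Figure D3:**
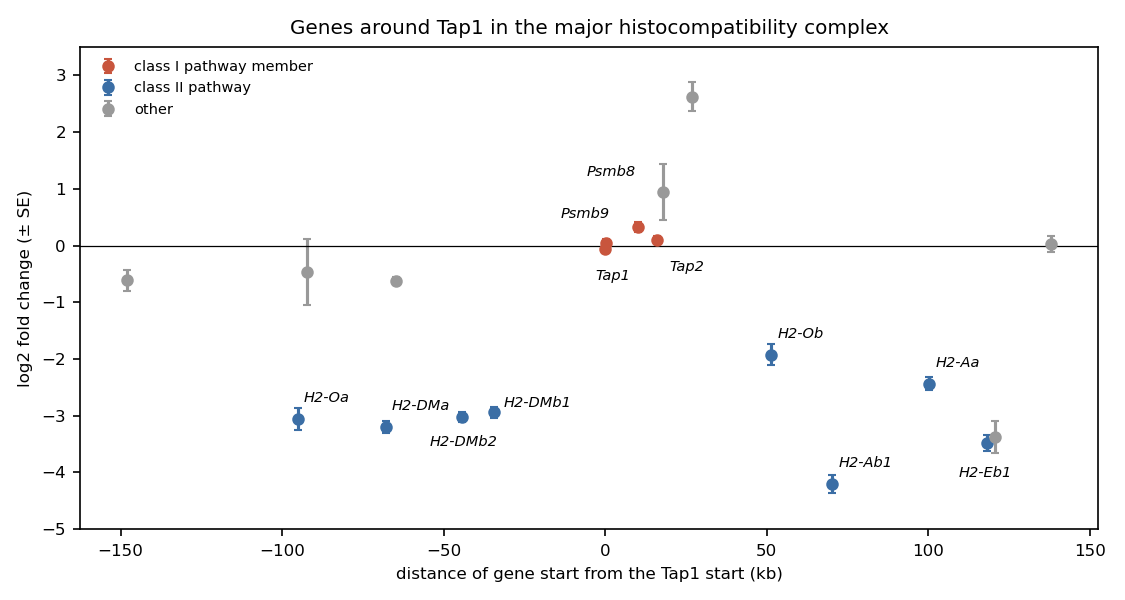
Log2 fold change ± SE (y axis) of the 19 tested genes whose start lies within 150 kb of the Tap1 start, by distance in kb (x axis). The 4 class I pathway genes (red) lie between −0.054 and 0.32, and the 8 genes of the class II list (blue) between −4.21 and −1.92.

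The class I genes of the MHC region lie among class II genes, most of which fell. Of the 10 class I pathway genes, 7 lie on chromosome 17 and 2 on chromosome 8. Within 150 kb of the Tap1 start, 19 genes were tested. The 4 class I genes there, Tap1, Psmb9, Psmb8 and Tap2, had log2 fold changes of −0.054 to 0.32, with 1 higher and 3 without a call. The 8 genes of the class II list on both sides of them were all lower, with log2 fold changes of −4.21 to −1.92, where 34.6% of tested genes were lower. Of 7 other genes, 1 was higher, 3 were lower and 3 did not pass. The last include H2-Eb2, a class II gene that was not on the list (log2 fold change 0.025, limma adjusted p = 0.889).

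Class I and class II levels were set against each other within samples. H2-K1 over H2-Ab1, a class II chain, was 0.174, 0.188, 0.190, 0.220 and 0.167 before and 4.41, 3.60, 4.56 and 2.81 after culture. H2-Ab1 thus had more reads than H2-K1 in every sample before, and fewer in every sample after culture. The difference was 4.34 on the log2 scale, or 20.2-fold (exact two-sided permutation test, p = 0.0159, adjusted p = 0.0286). For the 2 transactivators, Nlrc5 over Ciita was 0.516 ± 0.0451 before (SD, n = 5) and 5.81 ± 1.17 after culture (SD, n = 4). Their ratio moved by 3.47, or 11.1-fold (exact permutation p = 0.0159, adjusted p = 0.0286), with no overlap. Both ratios held with the GC and length trend removed, at 4.23 and 3.37 (exact permutation, adjusted p = 0.0357 each). Over the class II list, 10 of 10 genes were lower with a median of −2.98. The log2 fold change was −3.03 for H2-DMb2, −2.94 for H2-DMb1 and −3.20 for H2-DMa (limma adjusted p = 9.48e-12, 1.68e-11 and 3.66e-11). Of the windows of H2-DMb2 and H2-DMb1, 30.9% and 27.2% were shared, most of all with each other.

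**Figure D4:**
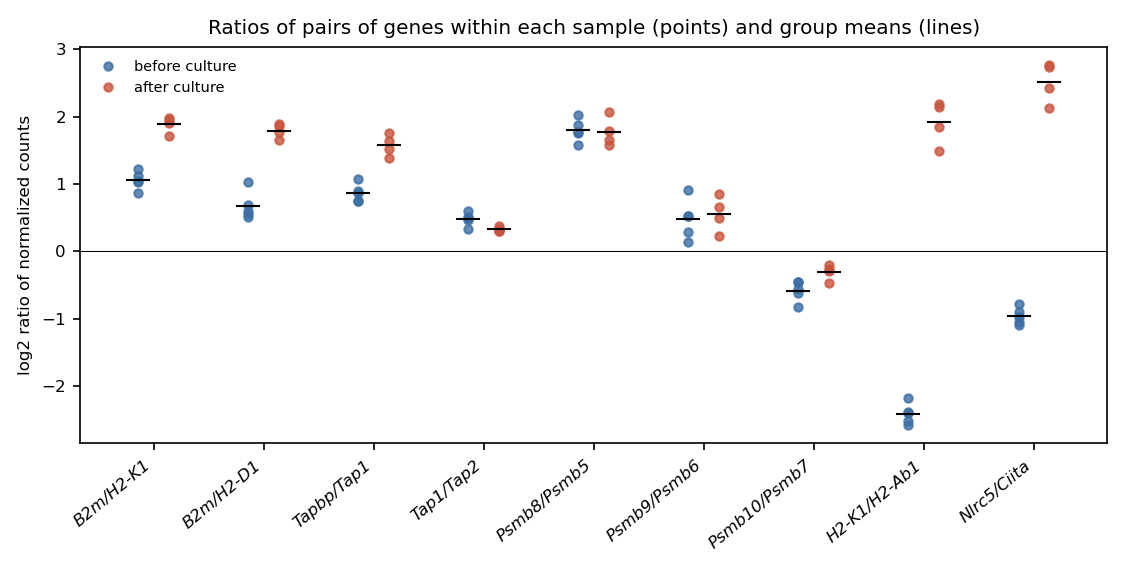
Log2 ratio of normalized counts (y axis) for 9 pairs of genes in each sample before (blue) and after culture (red), with group means as lines. The ratios H2-K1/H2-Ab1 and Nlrc5/Ciita cross 0 between the groups, and those of immunoproteasome to constitutive subunits overlap.

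Nonclassical class I genes, which present to other lymphocytes or present lipids, were counted for comparison: 7 of 10 were higher, 1 lower and 2 without a call, with a median of 0.50. Of all tested genes 34.2% were higher and 34.6% lower. Cd1d1, which presents lipids to NKT cells, rose from 228 ± 27.8 to 1386 ± 137 normalized counts (log2 fold change 2.60, SE 0.107, limma adjusted p = 1.85e-10). H2-Q6 rose by 0.87 (limma adjusted p = 1.84e-06) and H2-Q4 by 0.53 (limma adjusted p = 1.00e-05). Of the windows of H2-Q6 and H2-Q4, 35.0% and 36.9% were shared with other genes, most of all H2-Q7 and H2-K1. For Cd1d1 the share was 25.8%, most of all with Cd1d2. H2-M3, which presents formylated peptides, fell from 758 ± 54.3 to 557 ± 54.0 (log2 fold change −0.45, limma adjusted p = 6.38e-04).

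Over the 9 samples, the genes most like B2m by Pearson correlation of log2 values, among 11785 genes with a mean of at least 100, were Lpl, Idh1 and Ankrd24 (r = 0.998 each). Those most like Nlrc5 were Dqx1 (r = 0.996), A530010L16Rik (r = 0.991) and Egf (r = 0.990). Lpl encodes lipoprotein lipase and went from 8598 ± 1598 to 43636 ± 5834 normalized counts, a larger change than that of B2m. With only a before and an after group, any gene with a large rise and little spread reaches such a value, and the points share libraries and depth. None of the 10 class I genes was among these closest genes.

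**Figure D5:**
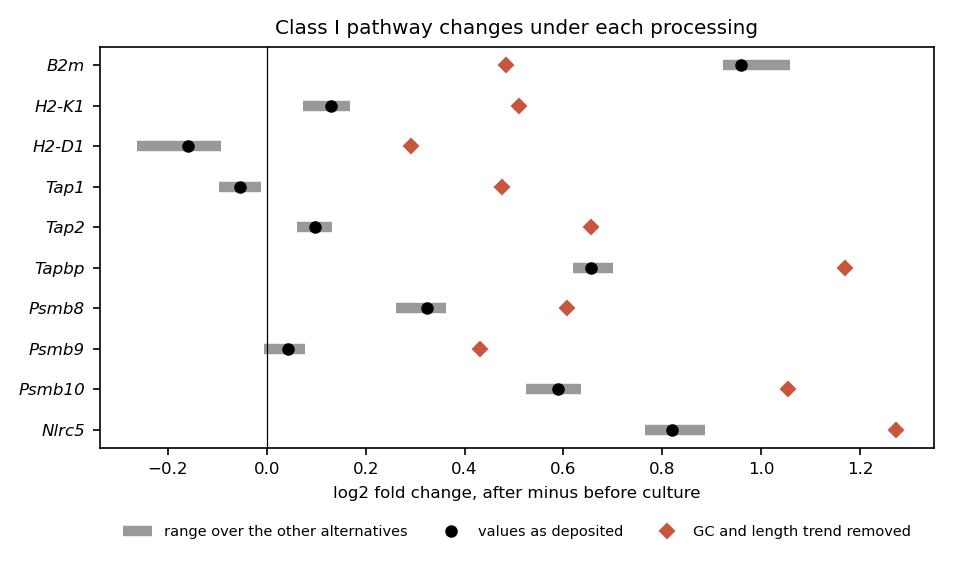
Log2 fold change after minus before culture (x axis) of the 10 class I genes with the values as deposited (black), the range over the other alternatives (grey bars), and with the GC and length trend removed (red diamonds). All 10 diamonds lie to the right of 0, while H2-D1 (−0.16) and Tap1 (−0.054) lie to the left of it as deposited.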

How the data were processed

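Total RNA of 9 samples was sequenced, 5 before and 4 after culture. The authors deposited their values as 1 table of normalized counts of reads, a signal that is never negative. DESeq2 and the build GRCm38 are named in the submitters' processing notes, without a version or role. The aligner, the counting tool, the annotation and whether strand was used are not given in the sources used here. In these deposited values, 100% were whole multiples of 1 step per sample (tolerance 1e-06), so whole reads were recovered. The 3782 rows without a symbol were left out of tests and depths.

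Genes with a mean of at least 10 were fitted as log2(value + 1) in limma 3.58.1 (R 4.3.3), with group as the only term, a mean-variance trend, and adjustment over 18202 genes at 0.05. Fold changes on this scale understate those of low genes. Ratios within a sample were compared by exact permutation over 126 splits. A level or fold without a log2 scale is a mean or a ratio of means of normalized counts, ± SD over the 5 or 4 samples. Reads carry no molecular identifiers.

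Alternatives were pseudocounts of 0.5 and 8, no filter or a minimum of 50, TMM, upper quartile and quantile scaling, edgeR 4.0.16 and DESeq2 1.42.0 on recovered reads, a replicate block, sample weights, removal of the GC and length trend (available for 96.5% of tested genes), and leaving out each sample. Removing that trend from the ratios was added after seeing the data. Lengths, GC content, gene coordinates and shared 50-base windows came from the longest transcripts and gene models of GENCODE M21, which can differ from the authors' annotation. Promoter windows came from RefSeq. The fit was tested on simulated data. The genes, lists, ratios and motifs were chosen with earlier results of these data known. Named besides the 10 genes are up to 3 genes per list with the smallest adjusted p, genes called against most of their list, the genes of the ratios, and the 3 genes most like B2m and Nlrc5. A gene of the interferon-gamma list is not reported here. Calr, Pdia3, Irf1, H2-Eb2, Gm15821 and Gm20496 were named after their values were seen, as were the DC markers named. Python 3.11.15, SciPy 1.17.1, NumPy 2.4.6, pandas 2.3.3 and matplotlib 3.10.9 were used for the rest.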

Additional observations from a re-analysis of the deposited data

Results flagged for a closer look

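Within groups, a sample stood apart from the others of its group by Dixon's test in 8 of 88 groups tested, where chance gives about 1 in 20. Of these, 6 concern replicate 4 before culture. It was low for H2-D1 (21425 normalized counts, against 29214 to 31933 in the other 4 samples), Tapbp (11136, against 12313 to 12757) and Psmb10 (994, against 1212 to 1283). It was high for Lnpep (7637, against 6230 to 6575), Psme4 (3022, against 2469 to 2593) and Creb1 (2478, against 2219 to 2290).

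Replicate 4 after culture was high for both class II genes that stood out, Ciita (1892, against 1391 to 1421 in the other 3 samples) and H2-DMb2 (540, against 438 to 455).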

How the results depend on the processing

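The 5 class I genes called higher (B2m, Nlrc5, Tapbp, Psmb10 and Psmb8) kept direction and call under all 22 alternatives, with the count at 5 except with the GC and length trend removed (10). The count called lower was 0, and 1 (H2-D1) with sample weights and in 1 of the fits that left out a sample (range 0 to 1). With the GC and length trend removed, the sign turned for H2-D1 (0.29), Tap1 (0.48), Psmb7 (−0.089), Psmb6 (0.12) and the B2m/H2-K1 ratio (−0.025). That setting also moved B2m/H2-D1 (0.19) and Tap1/Tap2 (−0.18) below the threshold and Psmb10/Psmb7 (1.14) above it. Leaving out 1 sample gave log2 fold changes of −0.0046 to 0.077 for Psmb9 and −0.17 to 0.072 for Psmb6. Log2 ratios then ran from 0.78 to 0.89 (B2m/H2-K1), 1.08 to 1.21 (B2m/H2-D1), 0.65 to 0.77 (Tapbp/Tap1), −0.19 to −0.12 (Tap1/Tap2), −0.13 to 0.030 (Psmb8/Psmb5), −0.014 to 0.19 (Psmb9/Psmb6), 4.24 to 4.48 (H2-K1/H2-Ab1) and 3.39 to 3.61 (Nlrc5/Ciita). The adjusted p of ratios called with all samples then mostly rose above 0.05, because the exact permutation test cannot go below p = 0.0286 with 4 against 4 samples, or 0.0357 with 5 against 3.

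A replicate block by the number in the titles left 5 class I genes higher and 0 lower. B2m was at 0.94 and Psmb6 turned to 0.024, and the only call lost among named genes was that of Psmb5 (0.34). For ratios, an exact sign-flip permutation test of 4 pairs cannot go below p = 0.125, and it was left out. Library names number the samples after culture 1, 3, 4 and 5. A replicate block by those numbers also left 5 higher and 0 lower, with B2m at 0.98, and changed no call of a named gene. In that fit H2-K1 was at 0.16 (limma adjusted p = 0.0517) and H2-D1 at −0.12 (limma adjusted p = 0.169). Deviations of same-numbered samples correlated at 0.081, 0.080, −0.21 and −0.040 by title and at 0.081, 0.25, 0.35 and 0.045 by library number, where each sample with a partner except replicate 5 before culture correlated best with it. Neither numbering was taken as pairs.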
